A study of Caenorhabditis elegans with 4 samples.

Results

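Chromosome III is 1 of the 6 nuclear chromosomes of the nematode Caenorhabditis elegans, and the data describe the sites on it at which the meiotic protein ZHP-3 was recovered by chromatin immunoprecipitation and sequencing (ChIP-seq). The sites were all peaks assigned to III in 3 deposited peak lists, 1 for each of 2 ChIP replicates and 1 for the series, called the combined list here. They number 1116 of 6537 peaks in replicate 1, 1032 of 6086 in replicate 2 and 1927 of 11798 in the combined list. Overlapping replicate peaks were merged into 1270 regions on III, of which 791 hold a peak of each replicate. Over the whole genome 4634 regions do so. These 791 are the shared regions described below.

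Both ChIP samples came from hermaphrodites carrying fem-2(b245), whose locus the labels place on III itself. The gene encodes a protein phosphatase that promotes male development. The worms were kept at 20 °C, and their stage is labelled as young adult with a germline, whereas the growth protocol describes harvest when gravid. Chromatin was prepared from whole ground worms fixed for 10 min in 1% formaldehyde, so germline and somatic nuclei were mixed, and ZHP-3 was precipitated with 5 µg of a rabbit polyclonal antibody. The series also has 2 input samples, which entered no comparison, and it has no wild-type strain or mutant lacking ZHP-3. Nothing in the labels says whether the replicates were separate cultures.

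ZHP-3 is related to budding yeast Zip3, a RING-domain protein of crossover formation. In the worm germline it first coats the synaptonemal complex, the protein axis that holds paired homologues together, and later becomes restricted to the places where crossovers form. Each worm chromosome has near 1 end a pairing centre, a stretch bound by zinc-finger proteins that anchors the chromosome to the nuclear envelope and starts homologue pairing and synapsis. On III it lies towards the left end and is served by ZIM-1. Crossovers fall mostly on the arms, while the chromosome centre is gene-dense and crosses over less.

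Coordinates are on the WS220 build. Scores are the authors' own, their scale is not stated in the files, so they serve here only for ranks inside 1 list. Read counts are not part of the lists, which leaves the depth behind a peak unknown. Neither a genome nor an annotation on that build was used, and no gene is assigned to any site. With 1 group of 2 samples no test between groups was possible, and the values below are descriptions.

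A typical ZHP-3 site on III was narrow. The median peak width was 410 bp in replicate 1 (middle 50% from 298 to 557 bp), 421 bp in replicate 2 (311 to 555 bp) and 331 bp in the combined list (230 to 520.5 bp). Peaks on the other 5 nuclear chromosomes had medians of 404, 402 and 316 bp in the same lists. The narrowest peaks on III were 127, 156 and 146 bp and the widest 8987, 6801 and 16298 bp. The width of a typical site therefore lay within a few percent of that elsewhere, while the widest calls were more than an order of magnitude wider.

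The sites were packed more densely on III than on the other nuclear chromosomes. The density on III was 81.0 peaks per Mb in replicate 1, while replicate 2 had 74.9, which averages to 77.9 ± 4.31 (SD, n = 2). The ratio of its density to that of the other 5 chromosomes together was 1.29 in replicate 1 and 1.28 in replicate 2. III makes up 13.7% of the nuclear sequence and held 17.1%, 17.0% and 16.3% of the peaks in replicate 1, replicate 2 and the combined list. Peaks covered 4.62%, 4.12% and 7.06% of its bases, against 3.55%, 3.22% and 5.6% of the bases of the other chromosomes. The density on III was above that of each other chromosome within either replicate, but the values of III overlapped across replicates with those of chromosome I, at 75.5 in replicate 1 and 68.1 in replicate 2. Shared regions on III (57.4 per Mb) and on I (55.0 per Mb) were also close.

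**Figure D1:**
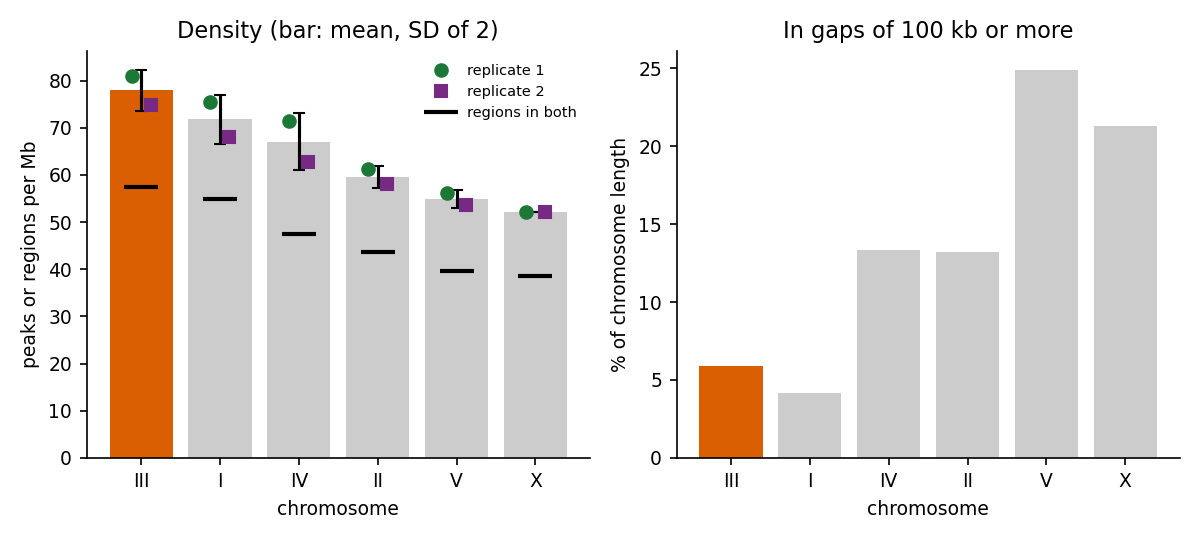
Left, ZHP-3 peaks per Mb by chromosome, with bars for the mean of the 2 replicates, error bars for the SD, points for each replicate and black dashes for shared regions per Mb; right, the percentage of each chromosome in gaps of 100 kb or more without a shared region. III stands first at 77.9 peaks per Mb with 5.87% of its length in long gaps, beside I at 71.8 and 4.14%.

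Most strong calls on III recurred and many weak ones did not. Of the replicate 1 peaks, 808 of 1116 (72.4%, exact Clopper-Pearson 95% interval 69.7% to 75.01%) overlapped a replicate 2 peak by at least 1 bp, against 73.4% over all nuclear chromosomes. Of the replicate 2 peaks, 861 of 1032 (83.4%, 81.0% to 85.6%) overlapped a replicate 1 peak, against 81.7% over all. These intervals take peaks as independent and cover counting error only. Recurrence on III was thus near the level of the whole genome. Among the weakest 10% by score, a partner was found for 34.2% in replicate 1 and 49.5% in replicate 2. From the seventh decile upwards the shares were at least 94.6% in replicate 1 and 92.2% in replicate 2, and they reached 99.1% and 100% in the tenth.

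**Figure D2:**
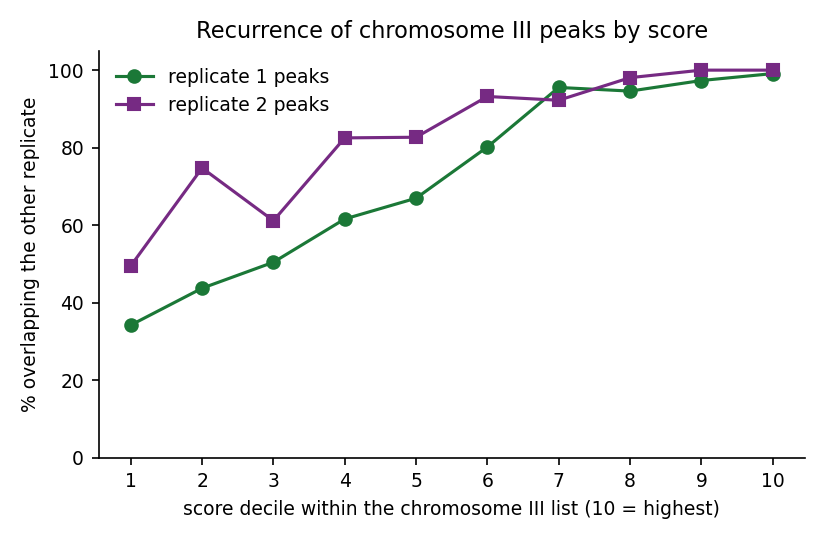
Share of chromosome III peaks that overlap the other replicate (%), by score decile within each list (10 is the highest), with a line for each replicate. The share climbs to 99.1% in replicate 1, from 34.2% in the lowest decile, and to 100% in replicate 2, from 49.5%.

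Where a site recurred, its position was reproduced closely. On III 798 peaks of the replicates were each other's best-overlapping partner, and their midpoints lay a median of 27 bp apart, within 100 bp in 696 pairs (87.2%). The median offset was 23.5 bp in the left arm, 29.5 bp in the centre and 28.2 bp in the right arm. Scores of the paired peaks had a Spearman correlation of 0.75 over the 798 sites and widths one of 0.74, given as a description of sites on 1 genome. In 111 pairs (13.9%) the score percentile differed by more than 30 points between replicates. Of the 791 shared regions, 740 (93.6%) were built from a single peak of each replicate.

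The 791 shared regions were divided almost equally between the arms and the centre of III. The chromosome was divided into 3 equal parts of 4.59 Mb, of which the outer ones are called the left and right arm and the middle one the centre. The left arm held 266 shared regions, the centre 265 and the right arm 260, or 57.9, 57.7 and 56.6 per Mb. Their median widths were 492, 526 and 522.5 bp. In what both replicates called, arms and centre were therefore nearly level.

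The calls that the replicates did not share had another layout. The 308 replicate 1 peaks without a partner were 117 of 389 peaks in the left arm, 72 of 342 in the centre and 119 of 385 in the right arm. The 171 unpartnered replicate 2 peaks were 42 of 330, 68 of 359 and 61 of 343 in the same order. With shared regions level, these counts largely restate how all peaks of each replicate were divided between the parts. Replicate 1 thus had fewest such calls in the centre, and replicate 2 fewest in the left arm. Combined-list peaks that overlapped neither replicate numbered 260 of 651 in the left arm, 208 of 588 in the centre and 298 of 688 in the right arm.

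**Figure D3:**
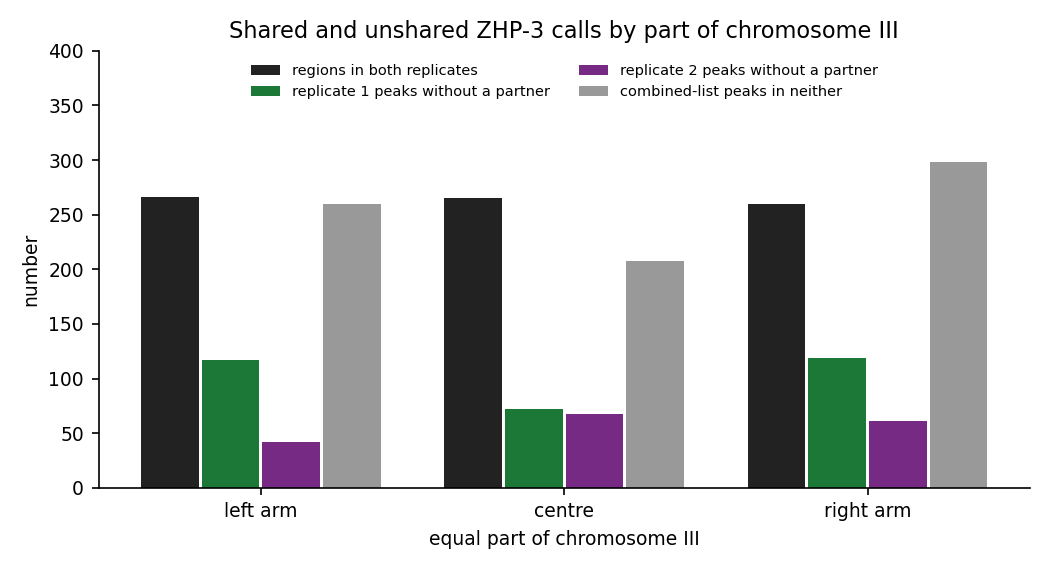
Number of shared regions, of unpartnered peaks of each replicate and of combined-list peaks in neither replicate, in the left arm, centre and right arm of chromosome III. Shared regions are level at 266, 265 and 260, whereas replicate 1 peaks without a partner number 117, 72 and 119.

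The arm to centre ratio on III, over all peaks, took opposite directions in the replicates. In replicate 1 the arms held 84.7 (left) and 83.8 (right) peaks per Mb and the centre 74.4, a ratio of 1.13. In replicate 2 the arms held 71.8 and 74.7 and the centre 78.1, a ratio of 0.937. The mean of 1.03 ± 0.137 (SD, n = 2) does not separate arms from centre. A single block of adjoining peaks, described below, accounted for 12 of 342 centre peaks in replicate 1 and 27 of 359 in replicate 2. Without it the centre held 330 and 332 peaks, and the ratios were 1.17 and 1.01. Among the higher-scoring 50% of the peaks on III the arm to centre ratio was 0.984 in replicate 1 and 0.858 in replicate 2.

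The other chromosomes had arm to centre ratios of 1.13 to 1.22 in replicate 1 and of 1.05 to 1.18 in replicate 2. The replicate 2 value of III was the only 1 of the 12 below 1. In peaks without the block III stood at 1.01, still below the other chromosomes in that replicate, whose own blocks were kept. Between the arms of III no difference beyond the spread was found, with a left to right ratio of 1.01 in replicate 1 and 0.962 in replicate 2. With only the outer 2 of 4 equal parts taken as arms, the mean left to right ratio was 0.856 ± 0.028 (SD, n = 2).

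The left end, towards which the pairing centre lies, had more peaks per Mb than the rest of III, and its first 0.5 Mb held most of them, 65 in replicate 1 and 55 in replicate 2, before 31 and 27 in the next 0.5 Mb. The first 1 Mb thus had 96 peaks in replicate 1 and 82 in replicate 2, which averages to 89 ± 9.9, against 77.1 ± 3.87 per Mb in the rest of III (SD, n = 2). The ratio was 1.20 and 1.10. With the first 0.5 Mb the mean ratio was 1.57 ± 0.104, and with the first 2 Mb it was 1.00 ± 0.132. Among the higher-scoring 50% of the peaks on III the first 1 Mb had a ratio of 0.934 in replicate 1 and 0.789 in replicate 2. Shared regions in the first 1 Mb numbered 59, against 57.3 per Mb in the rest. The files do not delimit the pairing centre, so where it lies within this end is not resolved here.

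Within the left end the peaks were concentrated in 1 place. In steps of 100 kb from the left tip, shared regions numbered 4, 6, 3, 15, 8, 6, 4, 2, 5 and 6. The stretch between 300 and 400 kb also carried 28 peaks in each replicate, against 2 to 12 in the other steps of replicate 1 and 3 to 12 in those of replicate 2. It contains a block of shared regions from 321761 to 332832 (11.1 kb). Replicate 1 covered 94.4% of that block with 10 peaks and replicate 2 covered 69.3% of it with 19. Counting peaks of a list under 1000 bp apart as 1 reduced the 28 to 10 in both replicates. The ratio of the first 1 Mb to the rest of III then became 0.994 in replicate 1 and 1.00 in replicate 2.

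The right end, away from the pairing centre, also had more peaks per Mb than the rest of III. Its last 1 Mb held 88 peaks in replicate 1 and 98 in replicate 2, which averages to 93 ± 7.07, against 76.7 ± 5.2 per Mb in the rest (SD, n = 2). Shared regions there numbered 69. At both ends of III the mean difference from the rest exceeded the SD, which with 2 values is a description and no test. Which end was denser differed between the replicates. Of the 88 and 98 peaks at the right end, 16 in replicate 1 and 24 in replicate 2 lay in blocks of closely spaced peaks. With peaks under 1000 bp apart counted as 1, the ratio of the right end to the rest was 1.01 in replicate 1 and 1.13 in replicate 2, against 1.09 and 1.34 with every peak counted.

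Dense ends were also found on other chromosomes. Of the 10 ends of the other nuclear chromosomes, 7 had a mean ratio to the rest of their chromosome above 1, from 0.795 at the right end of I to 1.304 at its left end, and 5 were above the 1.15 of the left end of III.

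The outermost bases differed between the tips. At the left tip all 3 lists had a peak from base 1, which ended at base 237 for replicate 1, at 233 for replicate 2 and at 210 for the combined list. Its score percentile among peaks on III was 57.5, 86.8 and 57.2. At the right tip the last shared region ran from 13782199 to 13782921 and ranked low, at percentiles of 34.8 in replicate 1 and 27.8 in replicate 2. The last peak of the combined list, 13783220 to 13783723, lay beyond it at percentile 83.7 and had no counterpart in either replicate. The end of III was itself taken from this peak, since the files state no chromosome length.

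Between the ends, the 27 complete windows of 500 kb held 18 to 42 shared regions, with a median of 29. The richest was 7.0 to 7.5 Mb, with 42 shared regions covering 59.5 kb, followed by 3.5 to 4.0 Mb and 12.5 to 13.0 Mb with 38 each. The window at 7.0 to 7.5 Mb contains the longest block, described below. That block alone supplied 9 of the 42 regions and 36177 of their bases. The poorest was 9.0 to 9.5 Mb with 18, followed by 6.5 to 7.0 Mb and 12 to 12.5 Mb with 21 each. The richest window thus lies next to one of the poorest, and no arm or end holds all of either kind. The last, incomplete window of 284 kb held 25, a density of 88.1 per Mb.

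Peak counts per window had a Spearman correlation of 0.64 between the replicates over the 27 windows, a description in which both lists share the same genome. For unpartnered peaks it was -0.27. Replicate 1 had 28 unpartnered peaks at 12 to 12.5 Mb, 26 at 0 to 0.5 Mb and 25 at 11.5 to 12 Mb, where replicate 2 had 5, 6 and 7. Combined-list peaks without a replicate counterpart were most numerous at 0 to 0.5 Mb and 12 to 12.5 Mb, with 47 in each. The window at 12 to 12.5 Mb was therefore poor in shared regions and rich in calls that did not recur.

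**Figure D4:**
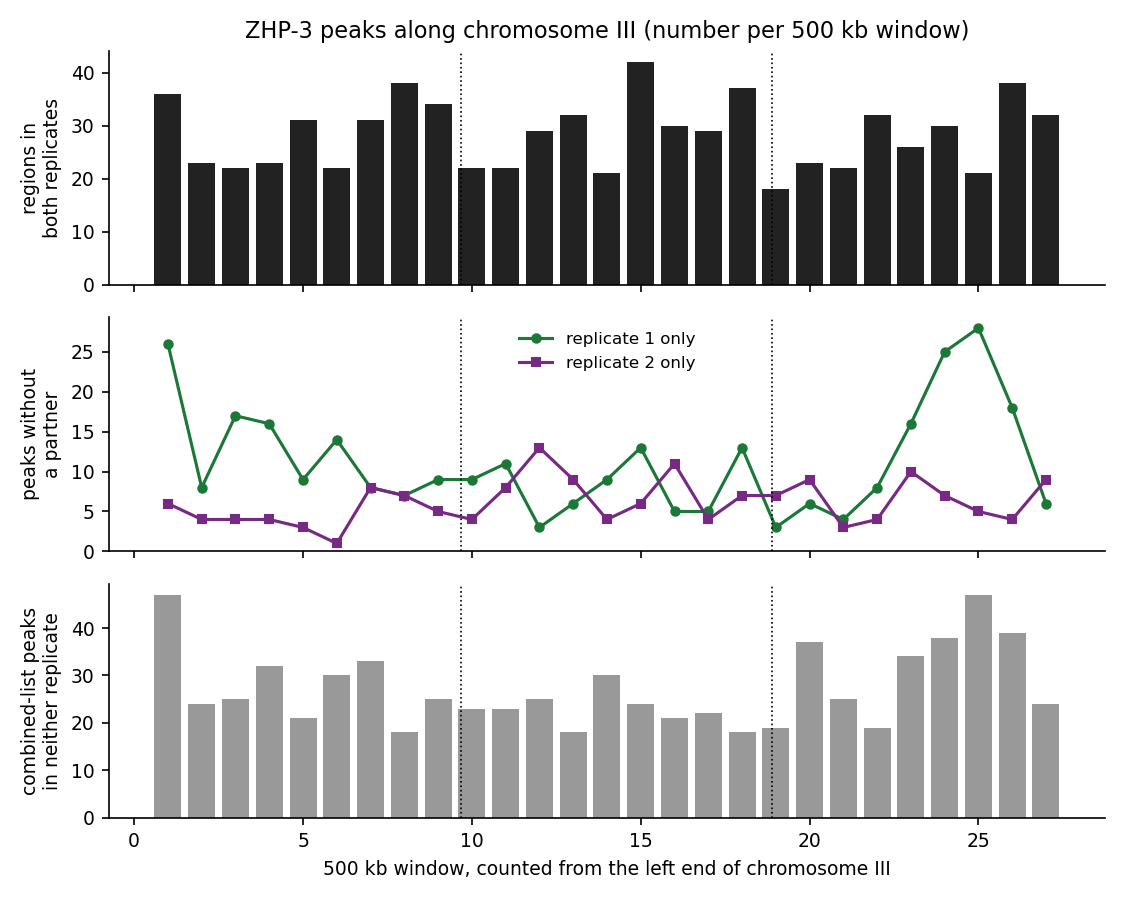
Counts in 27 windows of 500 kb along chromosome III, numbered from the left end, for shared regions (top), unpartnered peaks of each replicate (middle) and combined-list peaks in neither replicate (bottom); dotted lines mark the bounds of the centre. Shared regions stay between 18 and 42, whereas replicate 1 peaks without a partner reach 26 in window 1 and 28 in window 25.

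The strongest shared sites on III were wider than most. In each replicate 25 peaks on III had the score 3100, a value held by 165 and 190 peaks of the whole lists, so the order at the top is partly tied. Both replicates were at 3100 or above in 18 shared regions, 8 in the left arm, 3 in the centre and 7 in the right arm. The arms thus held 15 of the 18 (83.3%) and 526 of all 791 shared regions (66.5%), a difference in small counts that was not tested. The 18 regions were 751 to 7845 bp wide with a median of 2006.5 bp, against 514 bp over all shared regions, and 9 of them exceeded 2000 bp. The 10 of them with the highest combined-list score are named here, 4 in the left arm, 1 in the centre and 5 in the right arm.

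A pair of neighbouring sites on the left arm led this order. The region from 1924820 to 1925757 had a combined-list score of 211.57 and the one from 1920852 to 1921848 a score of 193.42, and each was a single peak in both replicates and under 1 kb wide. The other left-arm sites lay at 424338 to 428132 (combined score 162.88) and 2112879 to 2114862 (146.46). In the centre only 8335283 to 8336743 was among the 10, with 175.48.

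Of these 10, the right-arm sites with the highest combined-list scores lay at 13446698 to 13448721 (189.64), 12345534 to 12348206 (185.19) and 12612194 to 12612944 (180.62). Those at 13752671 to 13754659 (138.96) and 11159935 to 11161514 (125.2) followed. All 10 sites lay at percentiles of 97.8 to 99.9 of the combined-list peaks on III, a range set in part by choosing them on that score. The regions at 6566772 and 2496584, also among the 18, lay at percentiles of 79.7 and 95.1. The site at 12612194 is the narrowest of the 10, at 751 bp, and its replicate 1 score was 3138.64.

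Wide shared regions were few and differed in score. Only 34 of the 791 (4.3%) exceeded 2000 bp, and they held 23.0% of the shared bases, with 13 in the left arm, 13 in the centre and 8 in the right arm. Such regions were 23 of 829 on I, 34 of 668 on II and 40 of 832 on IV. On V they were 44 of 831 and on the X 33 of 683, so the share on III was within the range elsewhere. Per Mb, III had 2.47 of them, against 1.53 on I to 2.29 on IV. Of the 5 widest on III, 3 adjoin each other in the centre, at 7405312 to 7414302 (8.99 kb), 7415439 to 7423229 (7.79 kb) and 7426717 to 7434228 (7.51 kb). Their combined-list scores were 27.08, 33.06 and 28.79, and the first of them reached 3100 in replicate 1. The remaining wide regions, 6566772 to 6574616 (7845 bp) and 2496584 to 2503296 (6713 bp), reached 3100 in both replicates and belong to the 18 above, with 31.88 and 83.85 in the combined list. Over the 791 shared regions, width and the lower of the replicate score percentiles had a Spearman correlation of 0.70, a description of sites on 1 genome. Each replicate percentile is that of the region's highest peak, so regions built from more peaks can score higher. Width and the combined-list score had a correlation of 0.52.

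Neighbouring sites often lay close together. The median distance between shared regions on III was 9.03 kb, with the middle 50% between 2.24 and 23.8 kb, and medians by part of 9.17 kb (left arm), 9.92 kb (centre) and 8.07 kb (right arm). The other chromosomes had medians from 10.2 kb on I to 13.9 kb on the X. On III 200 of the 791 shared regions (25.3%) had another within 1000 bp, forming 76 groups, of which 52 were pairs. Groups had at most 9 regions and a median length of 1.94 kb. Joined in this way, 4 groups were blocks of 10 kb or more and held 12.2% of the shared bases. Groups of any length numbered 83 beside 829 shared regions on I, 78 beside 668 on II and 101 beside 832 on IV. V had 101 beside 831 and the X 77 beside 683. Grouping was therefore no more frequent per shared region on III than elsewhere.

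The longest block, in the middle of III from 7405312 to 7442454, was nearly continuous in all lists. It covers 37.1 kb and was filled to 90.8% by replicate 1, to 92.4% by replicate 2 and to 98.8% by combined-list peaks. Replicate 1 divided it into 12 peaks with a median width of 1049.5 bp, replicate 2 into 27 peaks of 694 bp and the combined list into 4 peaks of up to 16298 bp. Scores were moderate over most of it, with medians of 311.53 in replicate 1 and 282.84 in replicate 2 and median percentiles of 70.7 and 66.1. The highest were 3100 in replicate 1 and 1573.17 in replicate 2.

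Its borders were unequal. No replicate peak lay in the 15 kb to its left. To its right peaks resumed after 1.81 kb in replicate 1 and 1.84 kb in replicate 2, and joining regions under 2000 bp apart extended the block to 7452287, a length of 47.0 kb. The block holds 6.24% of all bases in shared regions on III.

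**Figure D5:**
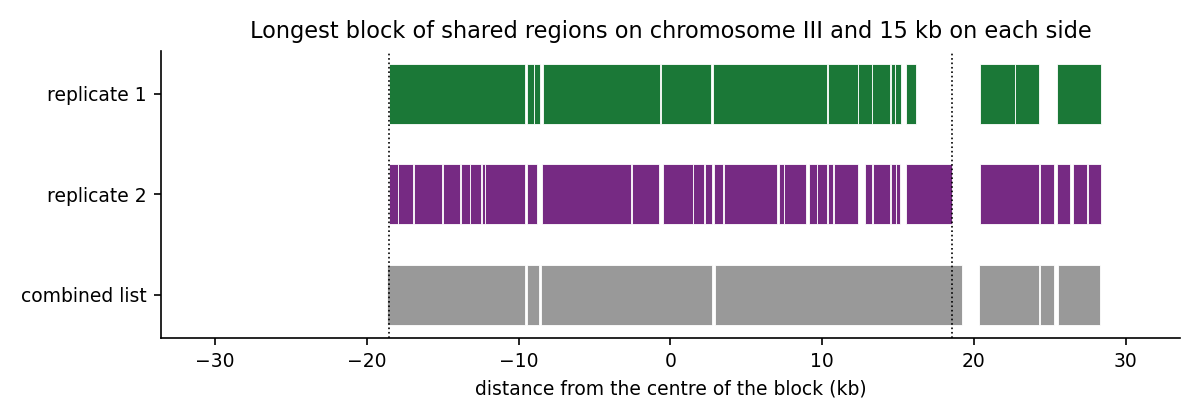
Peaks of replicate 1, replicate 2 and the combined list across the longest block of shared regions on chromosome III and 15 kb on each side, by distance from the block's centre in kb; dotted lines mark its ends. The block is filled to 90.8% by 12 peaks in replicate 1, to 92.4% by 27 in replicate 2 and to 98.8% by 4 in the combined list, with no replicate peak to its left.

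The other blocks lay near the ends. One, from 13584094 to 13599079 (14986 bp), was a single peak of 15173 bp in the combined list, with a score of 60.6, and sits 185 kb from the right end. It was cut into 8 peaks in replicate 1 (median score 1134.4) and 14 in replicate 2 (437.85). Another ran from 13074875 to 13086586 (11.7 kb), with 8 and 10 peaks at median scores of 334.94 and 274.03. The block at 321761 near the left end had median scores of 268.29 in replicate 1 and 122.88 in replicate 2, the largest rank difference among the 4, at median percentiles of 66.1 and 33.5. Next in length came the single region at 6566772 already described. No input signal was analysed, so the blocks were not set against input.

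Long gaps were few on III. Only 6 stretches of 100 kb or more lacked a shared region, 810 kb in all or 5.87% of the chromosome. I had 5 such gaps (4.14% of its length), while II had 17 (13.2%), IV 18 (13.3%), the X 28 (21.3%) and V 40 (24.9%). III therefore stood with I among the chromosomes with few gaps.

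The longest gap on III was 9868320 to 10051502 (183 kb) on the right arm, with no peak in replicate 1 and 1 weak peak, at percentile 9.69, in replicate 2. The gap from 629409 to 783218 (154 kb) lies in the left end, to the right of the 11.1 kb block, and had 1 peak in each replicate, at percentiles of 17.7 and 4.46. The remaining gaps were at 12711534 to 12838808 (127 kb), 11436028 to 11554517 (118 kb), 9126256 to 9239874 (114 kb) and 9240354 to 9353707 (113 kb). The last 2 of these adjoin a single shared region of 479 bp, so that 227 kb around the border of centre and right arm held 1 shared region. That region had scores of 78.57 in replicate 1 and 195.49 in replicate 2.

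These gaps were not empty of calls. Together they held 8 peaks of replicate 1, 11 of replicate 2 and 57 of the combined list, and 39 of those 57 overlapped neither replicate. Over all of III 766 of 1927 combined-list peaks (39.8%) did so. A gap excludes shared regions by definition, which raises the share of such peaks inside it. The gap at 11436028 alone had 6 replicate 1 and 4 replicate 2 peaks, which by the definition of a gap do not overlap each other. With the peaks of either replicate taken into account, no stretch of 100 kb on III was without a region.

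Peaks called in 1 replicate were weak and narrow. The 308 of replicate 1 had a median score percentile of 22.8 and width of 287.5 bp, against 62.5 and 462 bp for those with a partner. The 171 of replicate 2 were at 21.9 and 309 bp, against 57.2 and 448 bp. A few were strong. The highest in replicate 1 was 2028298 to 2029405, with a score of 1436.88 at percentile 95.2, the only unpartnered peak in the top 10% of either list on III. It was followed by 1749410 to 1750147 (743.26) and 1844726 to 1845462 (584.03).

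All 3 lie within 300 kb of each other on the left arm, around the strong shared pair at 1920852 and 1924820, and the last is 225 bp from a replicate 2 peak. They were also in the combined list, which may rest on the same reads, with percentiles of 90.3, 79.9 and 80.8. In replicate 2 the highest were 3954166 to 3954748 (447.69), 9268942 to 9269474 (403) and 11466665 to 11467196 (322.27). Those at 9268942 and 11466665 lie inside the gaps that begin at 9240354 and 11436028.

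The combined list contained nearly every replicate peak on III, with 99.0% for replicate 1 and 99.5% for replicate 2. The reads behind it are not stated and may be those of the replicates, so this overlap is not independent support. Conversely, 752 of its 1927 peaks on III (39.0%) overlapped both replicates, against 37.7% in the whole list. Another 253 (13.1%) overlapped replicate 1 alone, 156 (8.1%) replicate 2 alone, and 766 (39.8%) neither, against 41.7% in the whole list. The shares on III were near those of the whole list. Median scores were 32.71 for peaks in both and 5.1 for those in neither, and median widths 505 and 219.5 bp. Of the 791 shared regions, 790 met a combined-list peak, the exception being a 277 bp region at 1964186 to 1964462 with a replicate 2 score of 50.22.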

How the data were processed

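The values come from 3 deposited peak lists of ZHP-3 ChIP-seq. Per the file headers, coordinates are on WormBase WS220, and the source column names MACS for the replicate lists and MACS v2 for the combined list. BWA and ce10 are named in the submitters' processing notes. The control behind the calls is not given in the sources used here, nor are the caller's settings. For each peak the authors deposited its bounds and a score of unstated scale. Read depth is unknown, and no counts were available to compute it. The 2 input samples were not analysed here.

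Peaks of III were overlapped from 1 bp, merged and joined under 1000 bp in Python 3.11.15 (pandas 2.3.3, NumPy 2.4.6, SciPy 1.17.1); matplotlib 3.10.9 drew the plots. A peak was placed by its midpoint. Chromosome length is the last base of the combined list. Percentiles are ranks within the III peaks of a list. Functions were checked on 20 pairs of simulated lists. Named regions are the 10 shared regions with the highest lower-of-replicates percentile (ties by combined score), the 5 widest, the 5 longest blocks and gaps (the sixth gap and regions outside these rules were named after their values were seen), the first and last, the 3 densest and poorest windows and the 3 strongest unpartnered peaks of each replicate. The members and rules were chosen with earlier results of these data known. Alternatives concerned overlap, score, arm bounds, covered bases, list and replicate.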

Additional observations from a re-analysis of the deposited data

How the results depend on the processing

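No paired analysis was possible because peak lists of only 1 group were analysed. Leaving out a replicate gave density ratios of III to the other chromosomes of 1.28 to 1.29, arm to centre ratios of 0.937 to 1.13, left to right arm ratios of 0.962 to 1.01 and left end ratios of 1.10 to 1.20. With 2 replicates such values always lie within 1 SD of the mean, and overlaps have none. The density ratio of III, 1.29, moved to 1.32 in the higher-scoring 50% and to 1.23 in the combined list. In the higher-scoring 50% the ratio was 1.28 in replicate 1 and 1.35 in replicate 2, so only replicate 2 rose. The arm to centre ratio, 1.03, moved to 0.894 for covered bases. That value includes the longest block, 37.1 kb in the centre, and covered bases without it were not computed. The left to right arm ratio, 0.986, moved to 0.856 with the outer parts of 4 as arms, 0.948 in the higher-scoring 50%, 0.946 in the combined list, 1.02 in shared regions and 1.03 with peaks under 1000 bp apart counted as 1. The left end ratio, 1.15, moved to 1.57 in the first 0.5 Mb, 1.00 in the first 2 Mb, 1.03 in shared regions and 0.997 with neighbouring peaks joined. Joining peaks, also at the right end, and leaving out the longest block were alternatives chosen after seeing the data. A 50% reciprocal overlap gave 65.7% for replicate 1 and 71.0% for replicate 2. Gaps of 100 kb or more rose to 19 with the higher-scoring 50% and fell to 0 with peaks of either replicate, as fewer or more regions enter by construction. Other causes were not tested. The other 23 of 39 alternatives stayed within the replicate spread, the interval or 1.5 times the count. These 23 include the ratios with a replicate left out, which could not fall outside the spread, so the tally does not measure robustness.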
